A study of Homo sapiens with 6 samples.

Results

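The genes described here are the anthrax toxin receptor genes *ANTXR1* and *ANTXR2* and the 3 genes of the main collagen VI chains, *COL6A1*, *COL6A2* and *COL6A3*. They were found by symbol, and the 5 genes are 5 rows of the 60663 genes in the count table. They were chosen by the difference between the groups, since *ANTXR2* was among the clearest rises with siLTBP2, and because *ANTXR2* clears collagen VI. Their own differences are therefore given below as a description with no test. The study asked what the transient loss of *LTBP2* changes in normal fibroblasts. CCD18Co, an established line of human colon fibroblasts, was transfected for 6 h with siRNAs against *LTBP2* (siLTBP2) or with siRNAs of a non-target sequence (siNT), and total RNA was taken at 48 h. Each group had 3 libraries, numbered 1 to 3, from this one line, and nothing in the labels says that they came from separate cultures, so p-values measure the spread between these libraries, which may be technical. With 1 pool of siRNAs against *LTBP2*, the loss of *LTBP2* and an action of these siRNAs on other transcripts cannot be told apart. All values come from whole cultures, in which fewer cells of a type and less RNA per cell cannot be told apart.

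Anthrax toxin receptors are transmembrane proteins with an extracellular von Willebrand factor A domain and a cytoplasmic tail. They are named for the bacterial toxin that enters cells through them, but their own ligands are matrix proteins. *ANTXR1*, also called TEM8, was found in tumour endothelium and binds collagens, and *ANTXR2*, also called CMG2, binds collagen IV, laminin and collagen VI. Inherited loss of *ANTXR2* causes hyaline fibromatosis syndrome, in which collagen VI accumulates in tissues, and the receptor carries collagen VI into cells for breakdown in lysosomes. Collagen VI is made by fibroblasts as a trimer of its chains, which is assembled inside the cell and secreted to form beaded microfilaments around cells. Mutations in its genes cause Bethlem myopathy and Ullrich muscular dystrophy. *LTBP2* itself codes for a matrix protein that binds fibrillin microfibrils.

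In these fibroblasts *ANTXR2* was nearly 4 times as abundant in siLTBP2 as in siNT, while *ANTXR1* and the collagen VI chains had levels that overlapped between the groups. Levels are given as CPM (counts in 1e6 counts of a library, scaled by TMM). All 5 genes were abundant enough to enter the fit. The test over all 16920 genes called a gene changed at a Benjamini-Hochberg adjusted p below 0.01 from edgeR's quasi-likelihood test, and by this rule 1 of the 5 genes was called, where the share of all tested genes was 9.16%. The same gene passed when a fold change above 2 was also asked for, as 2.57% of all tested genes did. *ANTXR2* was also the 1 gene of the 5 whose libraries did not overlap between the groups, which was so for 37% of all tested genes. Since the choice of the genes used this comparison, nothing is read from these counts.

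*ANTXR2* (ENSG00000163297) is a minus strand gene of chromosome 4 (GRCh38, 79901146 to 80125454) with a canonical transcript of 17 exons and 8419 bases. *ANTXR1* (ENSG00000169604) is on chromosome 2, plus strand, from 69013176 to 69249327, with 18 exons and 5858 bases in its canonical transcript. *COL6A3* (ENSG00000163359) is on the minus strand of the same chromosome, from 237324003 to 237414328, and has 44 exons. *COL6A1* (ENSG00000142156) and *COL6A2* (ENSG00000142173) are both on the plus strand of chromosome 21, from 45981770 to 46005050 and from 46098112 to 46132848, with 35 and 28 exons. Of these genes, *ANTXR2* shares exon sequence with a gene on the other strand, the pseudogene *KPNA2P1*, which had at most 2 counts in any library, and no other annotated gene shares exon bases with any of the 5.

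The stretches upstream of annotated start sites are shown for *ANTXR2*, for the other receptor and for 1 collagen VI chain, so that the receptors can be compared. They come from RefSeq on GRCh38.p14, which had entries for 4 of the 5 genes, and the one at the canonical start of *ANTXR2* is cut where an annotated exon of the gene begins. Each is written 5′ to 3′ on the strand of the gene. Capitals mark the TATA box letters TATAAA and the GC box letters GGGCGG on either strand. The second *ANTXR2* stretch belongs to the start site of its canonical transcript. The *ANTXR1* stretch belongs to a start site at 69013144, which is not the canonical one at 69013179.
*ANTXR2*, upstream start, chr4:80073473-80073722, minus strand: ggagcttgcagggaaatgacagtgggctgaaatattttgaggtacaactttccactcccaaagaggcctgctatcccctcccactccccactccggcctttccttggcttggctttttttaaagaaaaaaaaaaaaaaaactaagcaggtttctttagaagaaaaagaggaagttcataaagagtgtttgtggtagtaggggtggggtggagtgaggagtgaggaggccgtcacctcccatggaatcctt
*ANTXR2*, canonical start, chr4:80073230-80073394, minus strand: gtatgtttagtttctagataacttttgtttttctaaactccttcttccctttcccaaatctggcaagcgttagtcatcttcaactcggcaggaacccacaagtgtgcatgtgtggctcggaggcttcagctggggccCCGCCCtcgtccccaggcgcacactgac
*ANTXR1*, chr2:69012894-69013143, plus strand: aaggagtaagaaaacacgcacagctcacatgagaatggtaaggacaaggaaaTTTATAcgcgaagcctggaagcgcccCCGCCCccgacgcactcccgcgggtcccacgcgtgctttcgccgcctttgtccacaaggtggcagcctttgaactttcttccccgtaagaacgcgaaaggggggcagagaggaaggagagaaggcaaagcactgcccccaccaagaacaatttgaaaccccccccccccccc
*COL6A2*, chr21:46097862-46098111, plus strand: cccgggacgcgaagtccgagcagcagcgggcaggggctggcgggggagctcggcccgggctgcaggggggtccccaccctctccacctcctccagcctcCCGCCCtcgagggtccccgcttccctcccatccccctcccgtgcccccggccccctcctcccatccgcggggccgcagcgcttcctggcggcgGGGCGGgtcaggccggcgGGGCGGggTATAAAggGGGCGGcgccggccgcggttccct

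Over the full 250 bases upstream of each start, neither *ANTXR2* start had the TATA letters, which 10.7% of 35116 RefSeq promoters hold, and the GC box letters were found at its canonical start alone (42.6% of all promoters). The *ANTXR1* stretch held both motifs once. *COL6A2* had 1 TATA box between GC boxes, of which it held 4, and a GC content of 79.6%. The *ANTXR2* stretches had a GC content of 46.4% and 51.6%, with a median of 58% over all promoters. The letters CCAAT (32% of promoters) and TGAGTCA, the AP-1 site (4.2%), were searched on both strands too and were in none of the windows of the 4 genes. These are descriptions of letters in a window, and no motif overlaps another of those searched in the stretches shown.

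The libraries gave between 44663424 and 53576899 counts each. *LTBP2*, the targeted gene, had 25.0, 23.1 and 21.2 CPM with siNT and 6.49, 8.61 and 6.00 CPM with siLTBP2, a log2 fold change of -1.72 with SE 0.15 (adjusted p = 6.6e-05). All 10 fibroblast markers were expressed, with 9960 to 13200 CPM in all in siNT and 10100 to 14400 CPM in siLTBP2. Of these, 1 (*PDGFRB*) fell, as 4.38% of all tested genes did. Summed over their markers, epithelial genes had at most 0.338 CPM, endothelial genes at most 2.03 CPM and leukocyte genes at most 0.486 CPM in any library, with *KRT20* at 0 counts in every library. The 5 smooth muscle markers summed to 219 to 246 CPM in siNT and 382 to 422 CPM in siLTBP2. That sum was made of *SMTN* (log2 fold change 0.79) and *ACTG2* (0.57), which both rose, as 4.78% of all tested genes did. *MYH11*, *DES* and *CNN1* had at most 5 counts in any library and did not enter the fit. The part of this rise in the differences below was not tested. Mitochondrial genes took 1.795% to 3.16% of the counts.

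*ANTXR2* was counted 5455, 5564 and 6874 times with siNT and 21114, 21003 and 21968 times with siLTBP2. Scaled by TMM, these were 118, 113 and 127.5 CPM in siNT and 484, 444 and 417 CPM in siLTBP2. The lowest siLTBP2 library was thus 3.27 times as high as the highest siNT library. The siNT mean was 119 ± 7.49 CPM and the siLTBP2 mean 448.5 ± 34.0 CPM (SD, n = 3), which is 3.76-fold or 1.91 on the log2 scale (standard error 0.10). With any 1 library left out the log2 fold change lay between 1.85 and 1.96. By size of rise *ANTXR2* ranked 58 among the 16920 genes, but most genes above it were less abundant in siNT: of the 1917 genes with a level in siNT at least that of *ANTXR2*, itself included, 1 had a larger rise. That gene, looked up after the values were seen, was *HMGA2*, which codes for an architectural chromatin protein. The count depends on this cutoff: *ITGA6*, at 114 CPM in siNT, lay just below it and had a larger rise too (log2 fold change 2.12). Since *ANTXR2* was chosen for its rise, these ranks restate the choice and nothing is read from them.

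*ANTXR1*, the other receptor, had 267, 220.1 and 248 CPM with siNT and 252, 246 and 225 CPM with siLTBP2. The siLTBP2 values fell within the range of the siNT values. Its means were 245 ± 23.7 and 241 ± 14.1 CPM (SD, n = 3), and the log2 fold change was -0.02 (standard error 0.10). *ANTXRL*, the receptor-like relative of both, had at most 4 counts in any library.

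**Figure D1:**
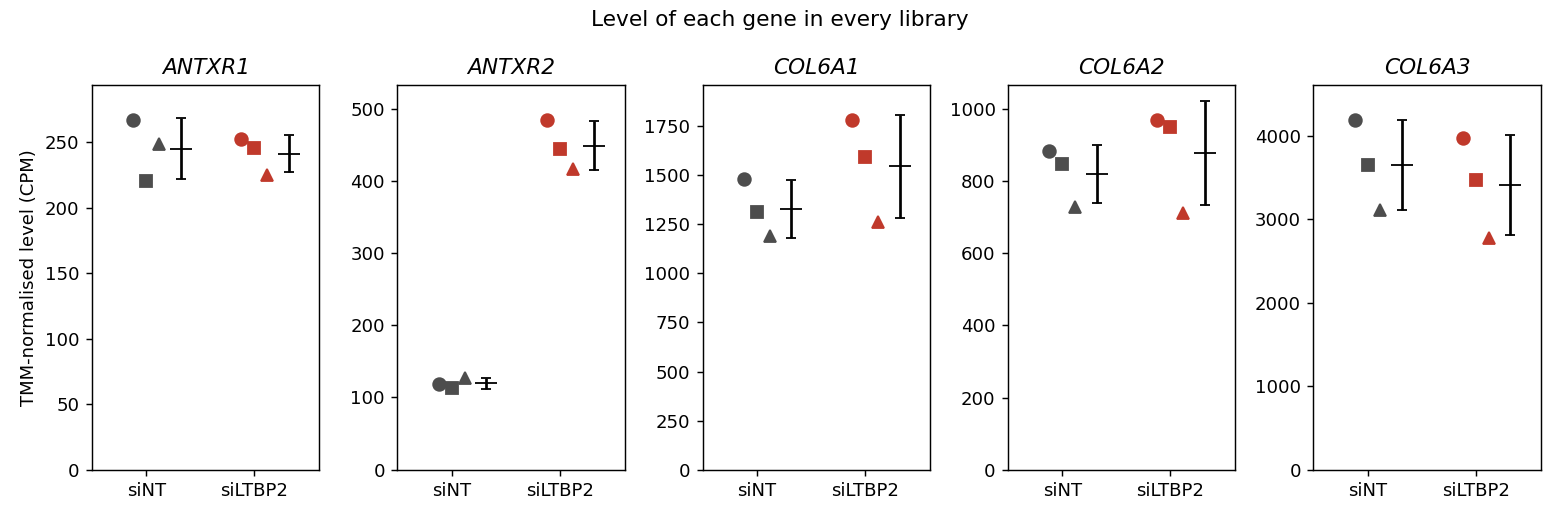
Level of each gene in every library in CPM scaled by TMM (y axis from 0, own scale in each panel) for siNT (grey) and siLTBP2 (red). Circles, squares and triangles are the libraries numbered 1, 2 and 3, and the black bar is the mean ± SD of 3 libraries. The siLTBP2 libraries of *ANTXR2* lie between 417 and 484 CPM, all above the siNT libraries, while the groups overlap for the other 4 genes.

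Because both receptors were counted in the same libraries, their ratio needs no scaling between libraries. *ANTXR2* had 0.442, 0.512 and 0.513 counts for each count of *ANTXR1* with siNT and 1.92, 1.81 and 1.85 with siLTBP2. The more abundant receptor by counts was therefore *ANTXR1* in every siNT library and *ANTXR2* in every siLTBP2 library. Levels were also compared per length, as RPKM (CPM per kilobase of the canonical transcript). *ANTXR1* had 41.8 ± 4.04 RPKM in siNT and 41.2 ± 2.41 RPKM in siLTBP2, and *ANTXR2* had 14.2 ± 0.890 RPKM in siNT and 53.3 ± 4.04 RPKM in siLTBP2 (SD, n = 3). *ANTXR2* made up 23.5%, 26.3% and 26.3% of the summed level of the receptors in siNT and 57.2%, 55.7% and 56.3% in siLTBP2. That sum was 56.0 ± 4.51 RPKM in siNT and 94.4 ± 6.33 RPKM in siLTBP2 (SD, n = 3).

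The share depends on the length used. With all merged exons of each gene in place of the canonical transcript, *ANTXR2* made up 46.3% ± 2.14 in siNT and 76.6% ± 0.548 in siLTBP2 (SD, n = 3), since the annotated exons of *ANTXR1* then sum to 17891 bases and those of *ANTXR2* to 10149. Counts per gene do not separate the isoforms of either receptor.

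By CPM, which does not account for length, *COL6A3* was the most abundant gene of the group. It codes for the longest chain of the trimer, with many von Willebrand factor A domains and a C-terminal fragment, endotrophin, that is released from it. It had 4189, 3648 and 3109 CPM with siNT and 3969, 3466 and 2776 CPM with siLTBP2. These ranges overlapped, and the log2 fold change was -0.10 (standard error 0.16). Each siLTBP2 library was nevertheless below the siNT library of the same number, though the labels do not say that the number marks a shared culture. In siNT, 99.9% of the tested genes had a lower mean CPM, and *COL6A3* ranked 10 by that measure.

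*COL6A1*, a short chain, had 1480, 1313 and 1188 CPM with siNT and 1782, 1592 and 1263 CPM with siLTBP2. The siLTBP2 library numbered 3 lay within the range of siNT and the other two lay above it. The log2 fold change was 0.22 (standard error 0.14). Each siLTBP2 library was above the siNT library of the same number. *COL6A2*, the other short chain, had 883, 847 and 729 CPM in siNT and 969.9, 950.2 and 711 CPM in siLTBP2, with a log2 fold change of 0.10 (standard error 0.13). Its siLTBP2 library numbered 3 lay below every siNT library and its other two above.

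The 3 chains varied alike among the libraries. In both groups the library numbered 1 had the highest level of each chain and the library numbered 3 the lowest, and the summed level of the chains was 1006, 905 and 789 RPKM in siNT and 1082, 984 and 770.5 RPKM in siLTBP2. The means of these sums, 900.0 ± 108 and 945.5 ± 159 RPKM (SD, n = 3), differed by less than the spread within either group. The chains took between 0.471% and 0.656% of all counts of a library. Within groups, the SD of log2 CPM was 0.21 for *COL6A1*, 0.20 for *COL6A2* and 0.24 for *COL6A3*, larger than the median of 0.17 over all tested genes, and 0.12 for *ANTXR1* and 0.10 for *ANTXR2*, smaller than that median. The group difference does not enter these SDs.

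**Figure D2:**
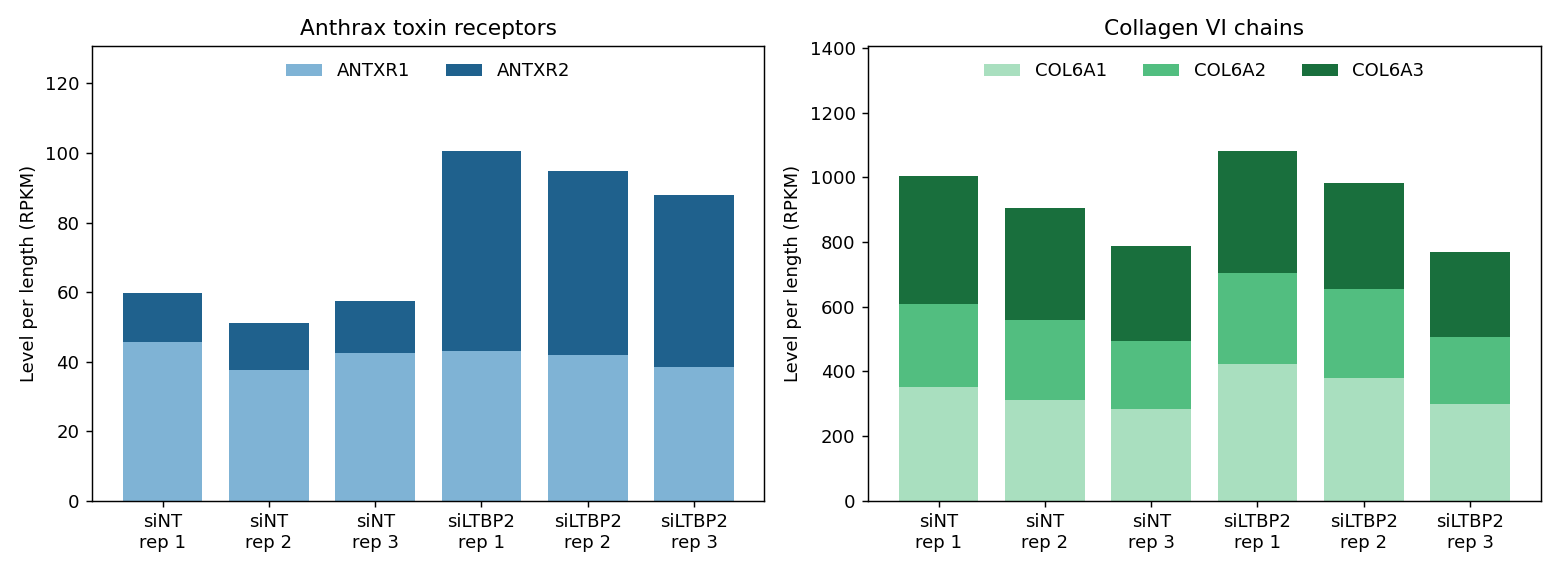
Level per length (RPKM, y axis from 0) of the receptors, stacked (left), and of the collagen VI chains, stacked (right), in each of the 6 libraries. The receptor sum lies between 87.96 and 100.6 RPKM in siLTBP2 and between 50.95 and 59.6 RPKM in siNT through the dark *ANTXR2* segment, while the sums of the chains overlap.

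Ratios between the chains within a library were steadier than their levels. Per length, *COL6A1* was at 0.885, 0.902 and 0.958 of *COL6A3* with siNT and at 1.13, 1.15 and 1.14 of it with siLTBP2. This ratio did not overlap between the groups, although the levels of both genes did. *COL6A2* was at 0.644, 0.710 and 0.717 of *COL6A3* in siNT and at 0.747, 0.838 and 0.783 in siLTBP2, again without overlap but with a smaller gap. The ratio of *COL6A1* to *COL6A2* was 1.37, 1.27 and 1.34 in siNT and 1.51, 1.37 and 1.46 in siLTBP2, and the second siLTBP2 library, at 1.373, was just below the first siNT library, at 1.374. The share of *COL6A3* among the chains was 38.4% ± 1.07 in siNT and 34.2% ± 0.678 in siLTBP2, and that of *COL6A1* was 35.1% ± 0.647 and 38.9% ± 0.352 (SD, n = 3). The ratios were looked at after the levels had been seen, they compare the same groups that chose the genes, and they have no test.

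**Figure D3:**
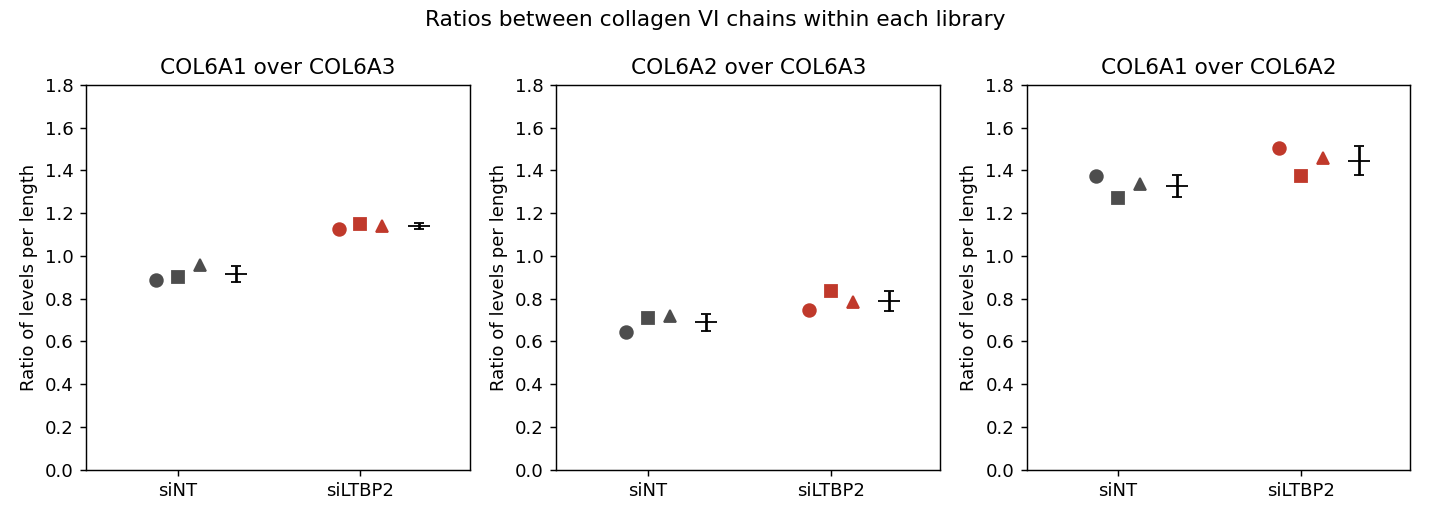
Ratio of levels per length (y axis from 0) between pairs of collagen VI chains in each siNT (grey) and siLTBP2 (red) library, with circles, squares and triangles for the libraries numbered 1, 2 and 3 and the mean ± SD of 3 libraries in black. The ratio of *COL6A1* to *COL6A3* is between 0.885 and 0.958 in siNT and between 1.13 and 1.15 in siLTBP2.

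By level per length in siNT the order was *COL6A3* (346 ± 51.3 RPKM), *COL6A1* (316 ± 34.8 RPKM), *COL6A2* (238 ± 23.4 RPKM), *ANTXR1* and *ANTXR2* (SD, n = 3). With these canonical lengths the ranges of *COL6A3* and *COL6A1* overlapped, though *COL6A1* was below *COL6A3* within every siNT library. Each later gene in the order had no overlap with the one before it. In siLTBP2 the order of means was *COL6A1* (368 ± 62.5 RPKM), *COL6A3* (323 ± 56.9 RPKM), *COL6A2* (255 ± 41.8 RPKM), *ANTXR2* and *ANTXR1*. The range of *COL6A3* overlapped those of both other chains there, though *COL6A1* was above *COL6A3* within every siLTBP2 library. *COL6A1* (300.5 to 424.1 RPKM) did not overlap *COL6A2* (206.4 to 281.5 RPKM) in siLTBP2. With merged exons *COL6A1* came first in both groups, and in siNT *COL6A3* (144.5 to 194.7 RPKM) then overlapped *COL6A2* (136.6 to 165.5 RPKM), as *ANTXR1* (12.3 to 14.9 RPKM) did *ANTXR2* (11.1 to 12.6 RPKM). With canonical lengths, the summed level of the chains was 16.9, 17.8 and 13.7 times that of the receptors in siNT and 10.8, 10.4 and 8.76 times in siLTBP2. With merged exons it was 23.6, 24.2 and 18.75 times in siNT and 11.1, 10.9 and 9.14 times in siLTBP2. The sums of the chains overlapped between the groups, so this difference restates the rise of *ANTXR2*, by which the genes were chosen.

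**Figure D4:**
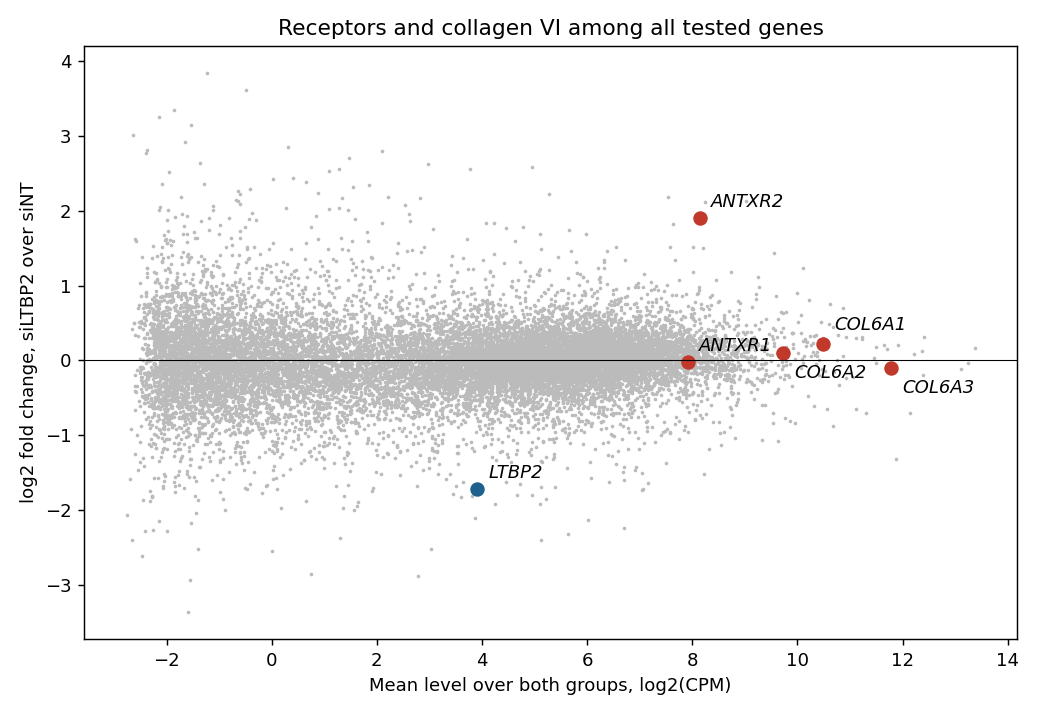
Mean level over both groups (x axis, log2 CPM) and log2 fold change of siLTBP2 over siNT (y axis) for the 16920 tested genes (grey), with the receptors and collagen VI chains in red and *LTBP2* in blue. *ANTXR2* stands at 1.91, and the other 4 red genes lie between -0.10 and 0.22.

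The other collagen VI chains had few or no counts. *COL6A5* and *COL6A6* had no counts in any library, nor did the pseudogene *COL6A4P2*, and *COL6A4P1* had at most 2 counts. The genes that work around collagen VI and its receptors were taken by role, from lists that do not hold the 5 genes. These lists were drawn up with earlier results of these data known.

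The enzymes and chaperones that hydroxylate, fold and export collagen were 23 genes, all tested, with a median log2 fold change of 0.15, where that of all tested genes was -0.01. Of these, 1 rose (4.78% of all tested genes did) and the other 22 did not pass. *PLOD2*, the lysyl hydroxylase of collagen telopeptides, rose from 117 ± 14.2 to 201 ± 30.3 CPM (SD, n = 3), a log2 fold change of 0.78 with SE 0.12 (adjusted p = 0.0017), and lost its call without siNT replicate 2 (0.79, adjusted p = 0.012). The most abundant of the list were *P4HB*, the protein disulfide isomerase of prolyl hydroxylase, at 650.1 CPM in siNT (log2 fold change 0.15), the collagen chaperone *SERPINH1* at 335 CPM (0.23), the prolyl isomerase *PPIB* at 273 CPM (0.22) and *FKBP10* at 269.9 CPM (-0.40, adjusted p = 0.024). *FKBP10* did pass, as lower, with the likelihood ratio test, DESeq2, no low-count filter and the replicate block.

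Of 16 surface receptors and matrix partners of collagen VI, 12 were tested, of which 4 rose and 1 fell (4.78% and 4.38% of all tested genes). The median over the 12 was 0.40 on the log2 scale. *ITGB1*, the beta chain shared by the collagen-binding integrins, had 677, 704 and 763 CPM in siNT and 1343, 1315 and 1347 CPM in siLTBP2, a log2 fold change of 0.90 with SE 0.09 (adjusted p = 0.00018). *FN1*, which codes for fibronectin, rose from 1164 ± 137 to 1969 ± 152 CPM (SD, n = 3), a log2 fold change of 0.76 (adjusted p = 0.0016). *CSPG4*, whose proteoglycan NG2 binds collagen VI at the cell surface, had a log2 fold change of 0.72 (adjusted p = 0.0025), and *MATN3*, a matrilin at 2.43 CPM in siNT, one of 0.99 (adjusted p = 0.0022). *ITGA1*, an alpha chain of a collagen receptor, fell from 109 ± 4.90 to 77.9 ± 3.42 CPM (SD, n = 3), a log2 fold change of -0.48 (adjusted p = 0.0023). *ITGA2*, the alpha chain of another, had means of 245 ± 76.3 CPM with siNT and 409 ± 39.3 CPM with siLTBP2 (SD, n = 3) and did not pass (adjusted p = 0.022). Its groups did not overlap, and it did pass, as higher, without siNT replicate 3 (0.96, adjusted p = 0.0048). *ITGA2* also passed with the likelihood ratio test, DESeq2, no low-count filter and the replicate block. *HSPG2*, the basement membrane proteoglycan perlecan, had a log2 fold change of -0.34 (adjusted p = 0.14), and *BGN*, the proteoglycan biglycan, had at most 4 counts in a library. The list had 3 calls without siNT replicate 1, 3 without siNT replicate 2 and 2 without siLTBP2 replicate 2, where *ITGB1* and *FN1* were the ones left. The call of *ITGA1* was also lost without siNT replicate 3 and without siLTBP2 replicate 1.

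Of 12 genes of collagen uptake and proteolysis, 11 were tested, with a median log2 fold change of -0.07. Of these, 3 rose (4.78% of all tested genes did) and the other 8 did not pass. *MMP14*, a membrane collagenase, had 452, 325 and 504 CPM in siNT and 783, 705.5 and 786 CPM in siLTBP2, a log2 fold change of 0.83 with SE 0.15 (adjusted p = 0.0032). The lysosomal cathepsins *CTSB* (0.63, adjusted p = 0.0011) and *CTSL* (0.79, adjusted p = 0.001) rose too. *MRC2*, the collagen uptake receptor Endo180, had means of 319 ± 37.5 CPM with siNT and 289 ± 37.6 CPM with siLTBP2 (SD, n = 3), and its log2 fold change of -0.14 did not pass, and the abundant *MMP2* (-0.29) and *TIMP2* (-0.07) did not pass either. Without siLTBP2 replicate 2 the list had 1 call, *CTSL*.

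The partners of the receptors in toxin entry and signalling were 15 genes, all tested, with a median log2 fold change of -0.05, of which 5 fell and 1 rose (4.38% and 4.78% of all tested genes). *FURIN*, the protease that cuts the receptor-bound toxin subunit, had 141, 103 and 135 CPM in siNT and 69.9, 72.2 and 69.3 CPM in siLTBP2, a log2 fold change of -0.84 with SE 0.12 (adjusted p = 0.00073). The arrestins *ARRB1* (-0.95, adjusted p = 0.00066) and *ARRB2* (-1.21, adjusted p = 0.00012) fell, as did the ubiquitin ligase *CBL* (-0.61, adjusted p = 0.0011), all known from receptor endocytosis. The tyrosine kinase *SRC* fell by 0.53 on the log2 scale (adjusted p = 0.0047) and its relative *FYN* rose by 0.51 (adjusted p = 0.0045). Both lost their calls without siNT replicate 1 or 3 or siLTBP2 replicate 1 or 2, and *FYN* also without siNT replicate 2. The cytoskeletal genes *TLN1* (0.43, adjusted p = 0.024), *VCL* (-0.05) and *RHOA* (0.20) and the LDL receptor relatives *LRP5* (0.09) and *LRP6* (0.10) did not pass. *TLN1* did pass, as higher, with the likelihood ratio test, DESeq2, no low-count filter and the replicate block.

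Lethal factor, the protease part of the toxin, cleaves MAP kinase kinases. Of 6 genes for these, 1 passed (9.16% of all tested genes), *MAP2K1* (log2 fold change 0.53, adjusted p = 0.0099), which lost its call whichever library was left out. *MAP2K2*, the most abundant at 172 CPM in siNT, had a log2 fold change of 0.03, *MAP2K4* one of 0.07 and *MAP2K7* one of -0.15, and *MAP2K3* had one of -0.62 (adjusted p = 0.014). *MAP2K3* did pass, as lower, without siNT replicate 2 (-0.76, adjusted p = 0.0099) and without siLTBP2 replicate 3 (-0.77, adjusted p = 0.0018), where *MAP2K1* did not.

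**Figure D5:**
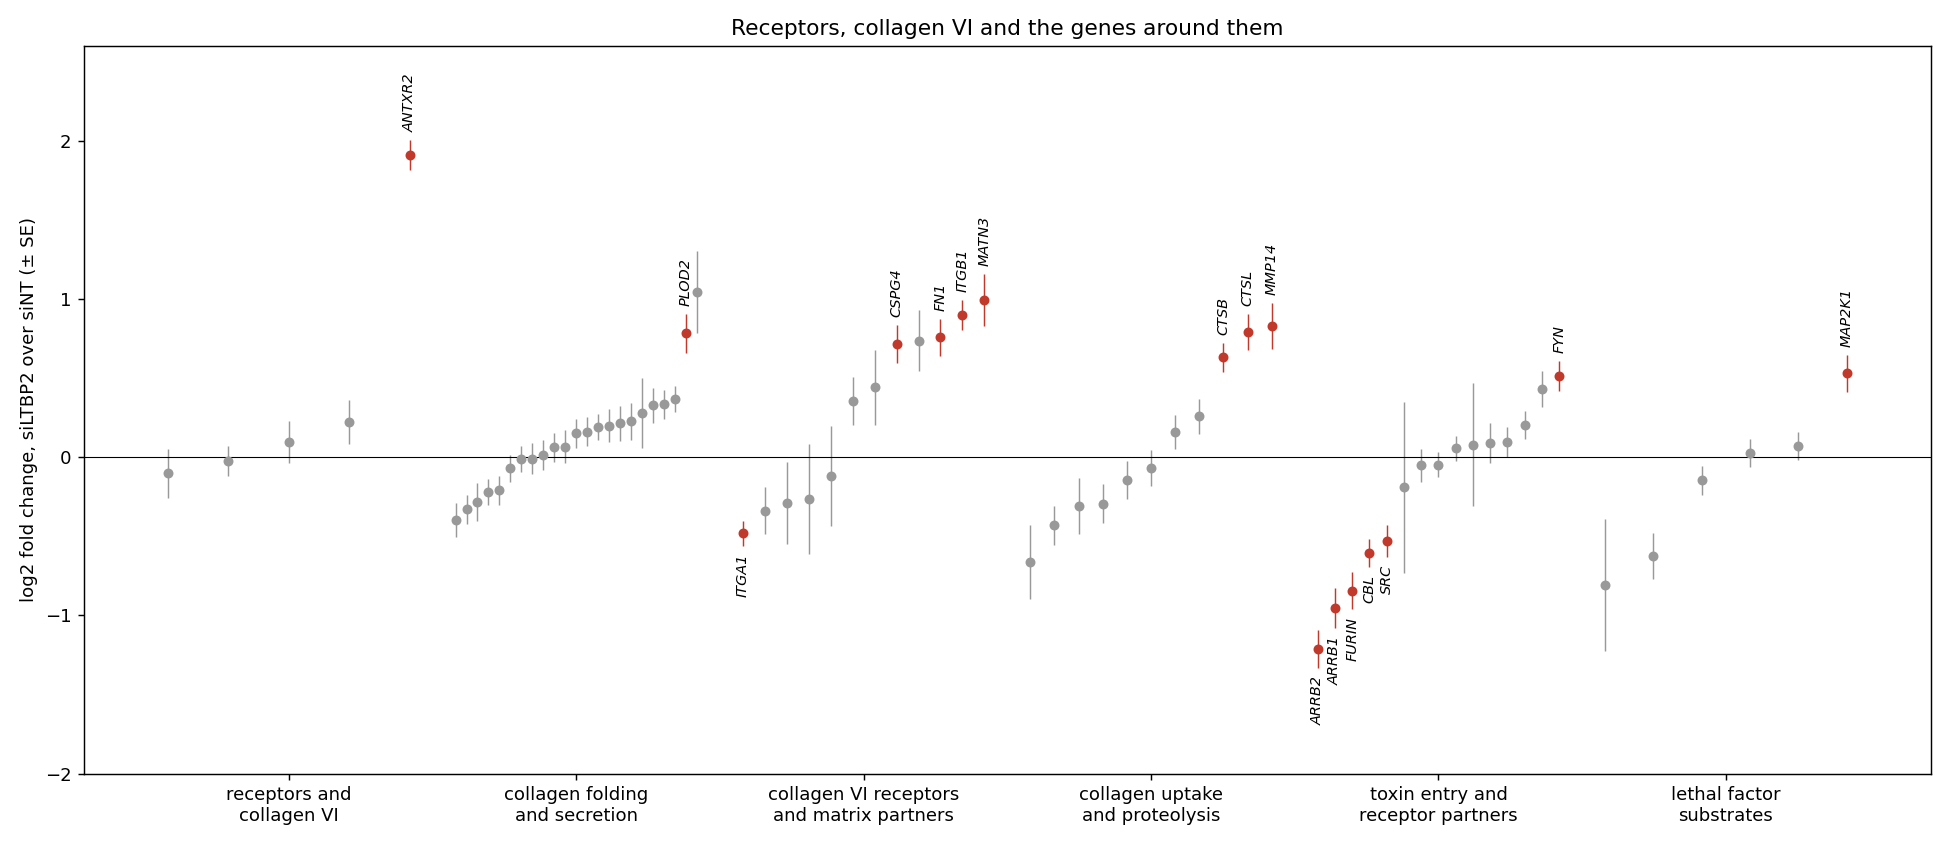
log2 fold change of siLTBP2 over siNT (y axis, ± standard error from the fit) for the receptors and collagen VI chains and for the tested genes of each list around them, ordered by value within a list. Red genes with names had an adjusted p below 0.01 and grey ones did not. In the toxin entry list 5 named genes are below 0 and 1 above it.

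The genes whose levels most resembled those of *ANTXR2* over the 6 libraries were sought among 9363 genes with a symbol and a mean of at least 10 CPM, by the root mean square distance of log2 CPM values centred on each gene's mean. The nearest was *SFRP1*, a secreted Wnt antagonist, at a distance of 0.11, with 84.6, 89.8 and 87.9 CPM in siNT and 307.5, 341 and 280 CPM in siLTBP2. Next came the integrin gene *ITGA6* (distance 0.13, log2 fold change 2.12), the aldehyde oxidase gene *AOX1* (0.16, log2 fold change 1.69), the histone pseudogene *H2BC20P* (0.17, log2 fold change 1.63) and the ETS factor gene *ETV1* (0.22, log2 fold change 1.49). Reads of *H2BC20P* can belong to histone genes of near-identical sequence, so its counts are uncertain. The measure of likeness includes the difference between the groups, so genes that rise as *ANTXR2* does are favoured by it.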

How the data were processed

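RNA of 6 CCD18Co libraries was analysed, 3 siNT and 3 siLTBP2. Ribosomal RNA was depleted and libraries were stranded. The authors aligned paired reads with STAR 2.7.1a (GRCh38), counted them per gene with HTSeq 0.11.2 and deposited the raw counts, with the tool versions taken from the submitters' processing notes. The sources used here name neither the Ensembl release nor the strand setting of the counting. The counts carry no normalization, and every count column was used.

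Genes were filtered (filterByExpr), scaled by TMM and tested with edgeR 4.0.16 in R 4.3.3 (glmQLFit, glmQLFTest, two-sided, group only) over 16920 genes. A gene was called at a Benjamini-Hochberg adjusted p below 0.01. Standard errors were obtained from the log2 fold change and its F statistic. Levels per length use transcripts of GENCODE 44, where 95.7% of the matched genes have the start given in the table. The quasi-likelihood steps were tested on simulated data.

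The 5 genes and the lists around them were chosen with earlier results of these data known. Named in the text are the 5 genes, *LTBP2*, the called genes of each list, up to 4 genes of each list with the highest siNT level, and the 5 genes nearest to *ANTXR2*. Other list genes named there, and the nearest tested genes on the chromosome, were added after their values were seen. Alternatives were the likelihood ratio test, DESeq2 1.42.0, scaling by total counts, upper quartile or RLE, 2 other filters, other thresholds, the replicate number as a block, leaving out each library, and merged exon lengths. No library was a copy of another: within groups, counts differed beyond sampling noise (chi-square over its degrees of freedom from 27.7 to 55.1).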

Additional observations from a re-analysis of the deposited data

How the results depend on the processing

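The log2 fold change of *ANTXR2* stayed between 1.85 and 1.96 and that of *LTBP2* between -1.89 and -1.61 under every alternative run. Those of *ANTXR1*, *COL6A1*, *COL6A2* and *COL6A3* moved by less than the SD between libraries. With 1 library left out they lay between -0.10 and 0.04 for *ANTXR1*, 0.11 and 0.35 for *COL6A1*, 0.02 and 0.23 for *COL6A2* and -0.22 and 0.03 for *COL6A3*. Per merged exon length the siNT levels were 13.7 RPKM for *ANTXR1*, 11.8 for *ANTXR2*, 239.7 for *COL6A1*, 154 for *COL6A2* and 169.6 for *COL6A3*, since that length is larger.

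The count of called genes, 1550, was 2548 with the likelihood ratio test, 2329 with DESeq2, 2746 with no low-count filter, 434 with a fold change above 2 as well and 3261 at an adjusted p below 0.05. With 1 library left out it lay between 761 and 1328, and why it differed with the library left out was not tested. It was 814 without siNT replicate 1, 895 without siNT replicate 2, 1016 without siLTBP2 replicate 1 and 761 without siLTBP2 replicate 2. The same-numbered libraries had correlations of their deviations of 0.28, 0.07 and 0.40, and those of differently numbered libraries lay between -0.37 and 0.10. The labels do not say that the number marks a shared culture, so the libraries were treated as unpaired. A fit with the replicate number as a block was run only as an alternative, and the effect of the number itself was not tested. With the replicate block the count was 4417. In that fit the folding list had 8 calls, the receptors and partners 9, uptake and proteolysis 7 and the lethal factor substrates 3.

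The folding list, with 1 call, had 4 with the likelihood ratio test, 3 with DESeq2 and 3 with no filter, and between 0 and 1 without 1 library. Receptors and partners had between 2 and 5 and uptake and proteolysis between 1 and 3 without 1 library, and the latter had 5 with no filter. The lethal factor substrates, with 1 call, had 2 with the likelihood ratio test, 2 with DESeq2, 3 with no filter, 0 with RLE factors, 0 with total counts, 0 with the filter of 1 CPM in 3 libraries and between 0 and 1 without 1 library. Where a fit without 1 library made a call there, it was *MAP2K3*, as lower, and not *MAP2K1*, and *MAP2K3* also passed, as lower, with the likelihood ratio test, DESeq2, no filter and the replicate block. Where no construction is named, the cause was not tested. Of the 17 called genes of the lists and the chromosome neighbours, 10 lost the call under some alternative and none of them changed direction. Depth limits the relatives with few counts, such as *ANTXRL*.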

Other observations

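The nearest tested gene on each side of the 5 genes was looked at after the other values had been seen. *PRDM8*, which codes for a PR domain protein of transcriptional repression, is the next tested gene on the side of the *ANTXR2* start, transcribed away from it, with 124.3 kb between the canonical start sites. It had 6.57, 6.18 and 5.49 CPM in the siNT libraries and 11.6, 10.1 and 8.31 CPM in the siLTBP2 libraries, so that the groups did not overlap. The log2 fold change of *PRDM8* was 0.72 with SE 0.15 (edgeR, adjusted p = 0.0082), and that of *ANTXR2* 1.91. This call was lost in 5 of the 6 fits that leave out 1 library, with log2 fold changes from 0.60 to 0.77, and with upper-quartile factors, total counts or the filter of 1 CPM in 3 libraries.

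On the other side of *ANTXR2*, *PAQR3* lies 962 kb away and had a log2 fold change of -0.07 (adjusted p = 0.73). None of the other neighbours passed in the fit used for the calls above. *GFPT1*, next to *ANTXR1*, had a log2 fold change of 0.08, *LSS*, the lanosterol synthase gene beyond *COL6A2*, one of -0.43 (adjusted p = 0.085), and *COPS8* and *LRRFIP1*, on the sides of *COL6A3*, had -0.13 and 0.04. Beside *COL6A1*, a gene with no symbol that ends 6.82 kb before it had a log2 fold change of 1.19 at 0.599 CPM in siNT (adjusted p = 0.02).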
